A study of Mus musculus with 16 samples.

Results

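The expression of 37 genes of fatty acid uptake, lipolysis and mitochondrial beta-oxidation was examined in mouse skeletal muscle on 16 one-colour Agilent arrays. The genes were chosen by name for their function, with earlier results of these data known. Every probe other than controls whose RefSeq accession belongs to them was taken, which gave 49 probes. Of the 37 genes, 27 had 1 probe, 8 had 2 and 2 had 3. They stand among 28964 genes kept from 55681 probes. All 37 passed the filter on dim probes and stood well above background on every array. Levels are log2 processed signal minus the array's 75th percentile, from the brightest probe of each gene, so a level of 0 is the 75th percentile of that array.

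The arrays fall into 4 groups of 4 male mice each, aged 21 to 23 weeks and killed after 15 weeks on their diet. WT mice are the Skm-CB1R+/+ littermates, and CB1KO mice (Skm-CB1R-/-) carry a floxed cannabinoid receptor 1 gene (Cnr1) recombined by a Cre under the promoter of ACTA1, the skeletal muscle actin gene, so the deletion is meant for muscle fibres and leaves other cells of the tissue with the receptor. Fat and sugar gave 16.7% and 12.4% of the energy (kJ) of the standard diet (SD). They gave 49.2% and 32.2% of that of the diet rich in both (HFHS). The labels put a vehicle or the compound S961 in the treatment text without tying either to an array, list both genotypes as Cre+, do not name the dissected muscle, and carry a diet tag for CB1KO_SD and WT_HFHS that goes against their titles. Groups were taken from the titles, which match the series design. The log2 level of Cnr1 ran from -3.46 to -1.85 in WT_SD, -3.54 to -2.01 in CB1KO_SD, -2.98 to -1.55 in WT_HFHS and -2.75 to -1.24 in CB1KO_HFHS. CB1KO minus WT was -0.23 ± 0.46 (SE) on SD and -0.14 ± 0.46 on HFHS (limma adjusted p = 0.940 and 0.932). Cnr1 was well above background on 3 of 4 arrays in WT_SD and in CB1KO_SD, and on 4 of 4 in each HFHS group. Its signal was dim: the lowest level called well above background ran from -4.99 to -2.60 by array. The position of its probe relative to the floxed part is also not known here, so these values do not check the knockout. The share of spots flagged as above background was 56.7% or more on each array, and the SD of log2 signal per array ran from 2.89 (CB1KO_SD replicate 2) to 3.97 (CB1KO_HFHS replicate 1). All SD arrays lay on slide 1 and all HFHS arrays on slide 2, so the diet and the slide cannot be told apart. Genotypes were compared within a slide, but a change of the genotype difference between diets is also a change between slides. Muscle fibre markers stood well above background on every array, 8 of 8, with array means from 8.03 to 8.70.

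Muscle takes up fatty acids that lipoprotein lipase releases from circulating triglyceride, carries them across its membrane through CD36 and transport proteins, and activates them to acyl-CoA. The carnitine shuttle then moves the acyl groups into mitochondria, where rounds of dehydrogenation, hydration, oxidation and thiolysis shorten them and pass electrons to ubiquinone. Slow-twitch and other oxidative fibres hold more of this machinery than glycolytic fibres, and the fatty acid-activated receptors of the PPAR family induce many of its genes. Muscle also stores fatty acids in lipid droplets, which lipases open when fuel is needed.

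Across the 37 genes the sign of the genotype difference turned between the diets, and so between the slides, but no single gene passed the test. On SD, 31 of 37 lay higher in CB1KO than in WT, with a median log2 difference of 0.24, where 32.6% of all 28964 genes lay above 0 and the median gene stood at -0.12. On HFHS, 33 of 37 lay lower in CB1KO, with a median of -0.33, where 67.7% of all genes lay below 0 and the median gene stood at -0.13. Above 0 on SD and below 0 on HFHS were 28 of the 37, against 17.5% of all genes. The change of the genotype difference with diet (the genotype-by-diet interaction) was below 0 for 33 of 37, with a median of -0.59 against -0.012 for all genes, of which 51.4% lay below 0.

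Tests were made with limma over all 28964 genes, with Benjamini-Hochberg adjusted p under 0.05 as the threshold. On SD 0 of the 37 passed, where 0.00345% of all genes did, and 3 had an unadjusted p under 0.05, against 8.72% of all genes. On HFHS 0 passed, where 0.235% of all genes did, and 3 had an unadjusted p under 0.05, against 8.97%. In the interaction 0 of the 37 and 0% of all genes passed, and 10 of the 37 had an unadjusted p under 0.05, against 3.54% of all genes. All 10 were on the lower side, where 1.45% of all genes were. The 10 were Acsl1, Cpt2, Slc25a20, Mlycd, Acadvl, Acaa2, Decr1, Etfdh, Plin5 and Ppara. That count rested on few arrays: without WT_HFHS replicate 3 it was 2, without WT_SD replicate 1 it was 3, without CB1KO_HFHS replicate 1 it was 3, and without both of these last arrays it was 1, while without CB1KO_SD replicate 2 it was 16.

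**Figure D1:**
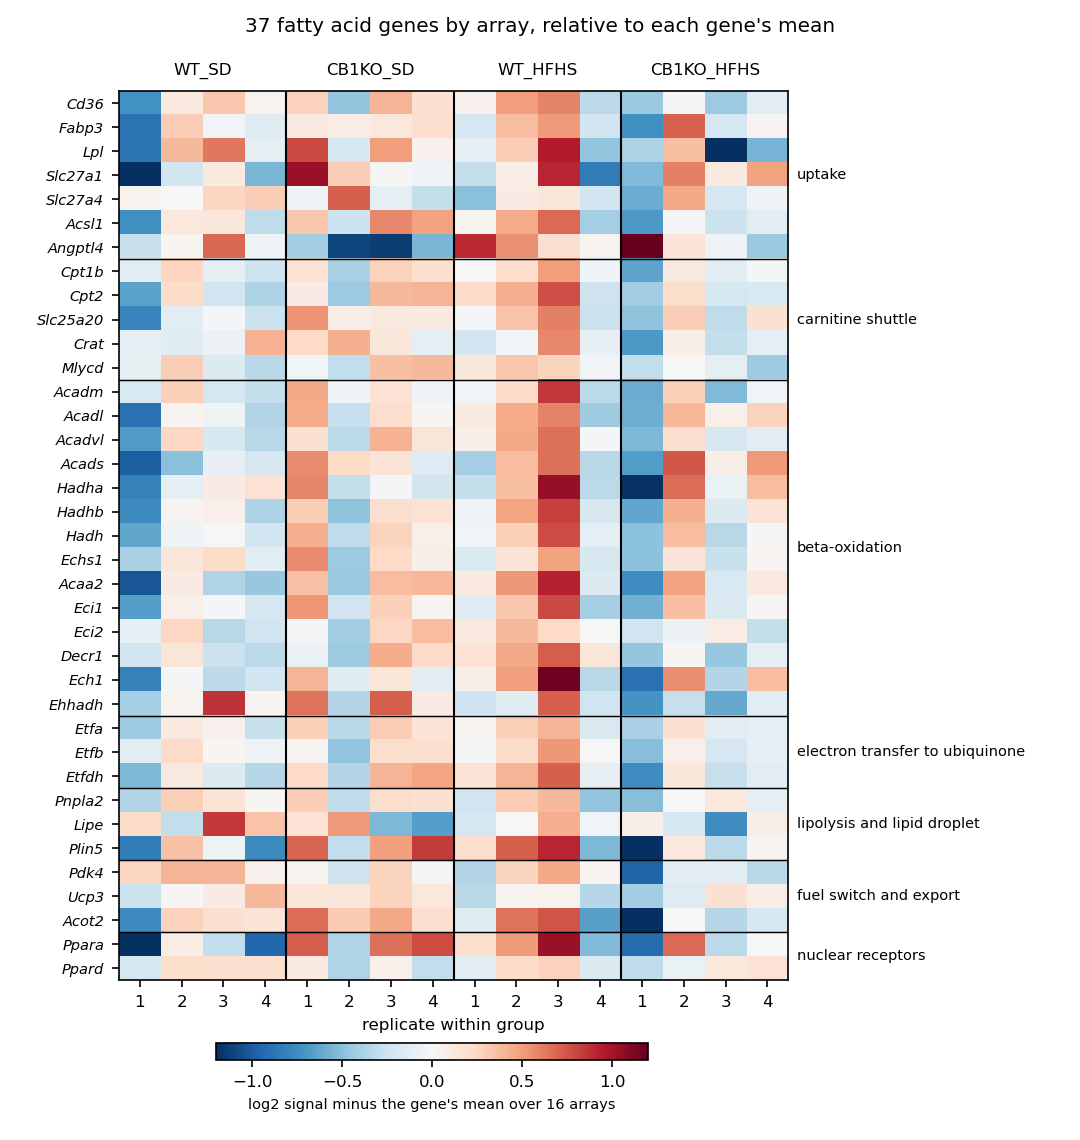
Each row is a gene, grouped by role, and each column an array, ordered by group and replicate; colour gives the log2 signal minus the gene's mean over 16 arrays, with values beyond 1.2 in either direction drawn at the end of the scale. WT_SD replicate 1, CB1KO_SD replicate 2, WT_HFHS replicate 4 and CB1KO_HFHS replicate 1 are low in most rows, and WT_HFHS replicate 3 is high.

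Of the 7 uptake genes, 5 lay above 0 on SD and 5 lay below 0 on HFHS. Cd36, the fatty acid translocase of the cell surface, stood at 3.95, 4.79, 4.99 and 4.72 in WT_SD, 4.95, 4.20, 5.08 and 4.86 in CB1KO_SD, 4.72, 5.17, 5.27 and 4.35 in WT_HFHS and 4.23, 4.69, 4.23 and 4.54 in CB1KO_HFHS. Both genotypes overlapped on both diets, with CB1KO minus WT at 0.16 ± 0.27 (SE) on SD and -0.45 ± 0.27 on HFHS (limma adjusted p = 0.925 and 0.66). Fabp3, the cytosolic fatty acid-binding protein of muscle and heart, stood at 7.54, 8.73, 8.40 and 8.28 in WT_SD, 8.54, 8.52, 8.56 and 8.63 in CB1KO_SD, 8.21, 8.79, 8.94 and 8.20 in WT_HFHS and 7.69, 9.14, 8.22 and 8.46 in CB1KO_HFHS. WT_SD replicate 1 and CB1KO_HFHS replicate 1 were its lowest arrays, and its differences were 0.33 ± 0.30 on SD and -0.16 ± 0.30 on HFHS. Lpl, the lipase that releases fatty acids from circulating triglyceride, stood at 5.87, 7.13, 7.37 and 6.62 in WT_SD, 7.53, 6.55, 7.24 and 6.79 in CB1KO_SD, 6.63, 7.03, 7.69 and 6.26 in WT_HFHS and 6.35, 7.10, 5.45 and 6.17 in CB1KO_HFHS. CB1KO_HFHS replicate 3 was the lowest of the 16. Lpl differed by 0.28 ± 0.41 on SD and -0.63 ± 0.41 on HFHS (adjusted p = 0.911 and 0.689), and its second, dimmer probe gave 0.93 and -0.25.

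Angptl4, a secreted inhibitor of Lpl that fatty acids induce, lay lower in CB1KO on SD. It stood at 3.47, 3.75, 4.42 and 3.68 in WT_SD, 3.32, 2.63, 2.60 and 3.18 in CB1KO_SD, 4.62, 4.28, 3.93 and 3.78 in WT_HFHS and 5.20, 3.89, 3.68 and 3.29 in CB1KO_HFHS. On SD all 4 CB1KO arrays lay below all 4 WT arrays, a difference of -0.90 ± 0.36 (limma adjusted p = 0.5). Such a separation on the lower side was found in 2.98% of all genes. On HFHS the genotypes overlapped (-0.14 ± 0.36), and within CB1KO the level on HFHS exceeded that on SD by 1.08 ± 0.36 (adjusted p = 0.311), the smallest adjusted p among the 37 in that comparison. CB1KO_HFHS replicate 1, at 5.20, was the highest of the 16 arrays. The mean of 8 adipocyte markers ran from -0.13 to 3.94 in WT_SD and 0.19 to 2.80 in CB1KO_SD. On HFHS it ran from 2.51 to 3.49 in WT and 2.11 to 4.36 in CB1KO. By group, this marker mean was lower in CB1KO on SD (1.79 against 2.44 in WT), as Angptl4 was. On HFHS it was higher in CB1KO (3.02 against 2.90 in WT), the opposite sign to Angptl4. The arrays highest for Angptl4 in WT_SD (replicate 3), CB1KO_SD (replicate 1), WT_HFHS (replicate 1) and CB1KO_HFHS (replicate 1) were also highest for that mean. Between 7 and 8 of the 8 markers were well above background on every array, Adipoq among them, and their part in the Angptl4 values was not tested. In dissected muscle, fewer cells of a type and less RNA per cell cannot be told apart.

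Slc27a1, a fatty acid transport protein with acyl-CoA synthetase activity, stood at 1.79, 2.76, 3.10 and 2.44 in WT_SD, 4.02, 3.28, 2.995 and 2.94 in CB1KO_SD, 2.70, 3.07, 3.90 and 2.14 in WT_HFHS and 2.45, 3.59, 3.10 and 3.46 in CB1KO_HFHS. It differed by 0.79 ± 0.39 on SD and 0.20 ± 0.39 on HFHS, and by 0.50 ± 0.28 averaged over both diets (adjusted p = 0.441). Slc27a4, a relative of it, differed by -0.078 ± 0.25 and 0.031 ± 0.25. Acsl1, which activates long-chain fatty acids for oxidation, differed by 0.47 ± 0.27 on SD and -0.46 ± 0.27 on HFHS, with an interaction of -0.93 ± 0.39.

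All 5 carnitine shuttle genes lay above 0 on SD and below 0 on HFHS. Slc25a20, the carnitine-acylcarnitine carrier of the inner membrane, stood at 0.80, 1.46, 1.56 and 1.32 in WT_SD, 2.12, 1.65, 1.70 and 1.69 in CB1KO_SD, 1.56, 1.93, 2.19 and 1.32 in WT_HFHS and 1.1, 1.87, 1.28 and 1.77 in CB1KO_HFHS. On SD the CB1KO arrays all lay above the WT arrays, which 0.981% of all genes did, with a difference of 0.51 ± 0.24 (adjusted p = 0.572). On HFHS the groups overlapped at -0.24 ± 0.24. Cpt1b, the muscle carnitine palmitoyltransferase of the outer membrane and the gate of the pathway, stood at 5.18, 5.56, 5.20 and 5.06 in WT_SD, 5.48, 4.92, 5.58 and 5.49 in CB1KO_SD, 5.30, 5.52, 5.80 and 5.25 in WT_HFHS and 4.67, 5.41, 5.17 and 5.29 in CB1KO_HFHS. Its differences were small, 0.12 ± 0.20 on SD and -0.33 ± 0.20 on HFHS (adjusted p = 0.924 and 0.667, 95% interval -0.31 to 0.55 and -0.76 to 0.095). Cpt2, the partner enzyme of the inner membrane, differed by 0.37 ± 0.25 and -0.44 ± 0.25. Crat, the carnitine acetyltransferase that exports acetyl groups, differed by 0.15 and -0.30, and Mlycd, which removes the Cpt1b inhibitor malonyl-CoA, by 0.18 and -0.38.

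The 14 beta-oxidation genes gave uniform signs on SD. All 14 lay above 0 on SD, from 0.15 to 0.65 with a median of 0.32, 13 of 14 lay below 0 on HFHS, with a median of -0.33, and the exception was Acads, the short-chain acyl-CoA dehydrogenase (0.093 ± 0.32). All 14 interactions were below 0, from -1.04 to -0.36. Decr1, the dienoyl-CoA reductase needed for unsaturated fatty acids, stood at 6.02, 6.396, 5.99 and 5.92 in WT_SD, 6.17, 5.82, 6.69 and 6.47 in CB1KO_SD, 6.42, 6.70, 6.97 and 6.396 in WT_HFHS and 5.78, 6.28, 5.79 and 6.14 in CB1KO_HFHS. On HFHS every CB1KO array lay below every WT array, a separation that 6.71% of all genes showed on that side. The difference was -0.62 ± 0.20 (unadjusted p = 0.00845 in limma, adjusted p = 0.331), against 0.21 ± 0.20 on SD, and the interaction was -0.83 ± 0.29 (adjusted p = 0.9997). Its second, dimmer probe gave -0.40 on HFHS and -0.67 for the interaction.

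Acadvl, the very long-chain acyl-CoA dehydrogenase, stood at 6.52, 7.45, 7.002 and 6.86 in WT_SD, 7.38, 6.87, 7.61 and 7.34 in CB1KO_SD, 7.27, 7.65, 7.86 and 7.18 in WT_HFHS and 6.66, 7.40, 7.002 and 7.07 in CB1KO_HFHS. It differed by 0.35 ± 0.23 on SD and -0.46 ± 0.23 on HFHS. Acaa2, the mitochondrial thiolase that performs the last step, stood at 5.95, 7.07, 6.61 and 6.51 in WT_SD, 7.32, 6.52, 7.34 and 7.37 in CB1KO_SD, 7.09, 7.49, 7.89 and 6.80 in WT_HFHS and 6.22, 7.45, 6.78 and 7.08 in CB1KO_HFHS. Its lowest arrays were again WT_SD replicate 1 and CB1KO_HFHS replicate 1, and its differences were 0.60 ± 0.32 and -0.43 ± 0.32. Acadm, the medium-chain dehydrogenase, stood at 6.95, 7.41, 6.92 and 6.84 in WT_SD, 7.58, 7.07, 7.30 and 7.08 in CB1KO_SD, 7.09, 7.36, 7.98 and 6.81 in WT_HFHS and 6.54, 7.42, 6.602 and 7.09 in CB1KO_HFHS. It differed by 0.23 ± 0.26 and -0.40 ± 0.26, with overlapping groups on both diets.

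Hadha, the alpha subunit of the trifunctional protein, stood at 2.03, 2.74, 2.94 and 3.02 in WT_SD, 3.43, 2.56, 2.83 and 2.62 in CB1KO_SD, 2.56, 3.20, 3.89 and 2.52 in WT_HFHS and 1.66, 3.52, 2.76 and 3.21 in CB1KO_HFHS. The spread within groups (SD 0.40 to 0.82, n = 4) exceeded both differences, 0.18 ± 0.40 on SD and -0.26 ± 0.40 on HFHS. Hadhb, the beta subunit of that protein, differed by 0.30 ± 0.29 and -0.31 ± 0.29. Ehhadh, a bifunctional enzyme of peroxisomes, stood at 0.58, 1.02, 1.85 and 1.01 in WT_SD, 1.64, 0.64, 1.70 and 1.08 in CB1KO_SD, 0.73, 0.84, 1.70 and 0.74 in WT_HFHS and 0.27, 0.71, 0.37 and 0.85 in CB1KO_HFHS. WT_SD replicate 3 was its highest array, and within CB1KO HFHS minus SD was -0.71 ± 0.31 (adjusted p = 0.49). Acadl, Hadh, Echs1, Eci1, Eci2 and Ech1 differed by 0.15 to 0.42 on SD and by -0.43 to -0.14 on HFHS.

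The electron transfer flavoprotein and its oxidoreductase carry electrons from the acyl-CoA dehydrogenases to ubiquinone. Etfdh, the oxidoreductase, stood at 5.03, 5.68, 5.41 and 5.23 in WT_SD, 5.81, 5.22, 5.97 and 6.05 in CB1KO_SD, 5.73, 5.97, 6.29 and 5.47 in WT_HFHS and 4.83, 5.71, 5.30 and 5.43 in CB1KO_HFHS. Its difference was 0.43 ± 0.24 on SD, -0.55 ± 0.24 on HFHS (adjusted p = 0.52) and -0.98 ± 0.34 for the interaction (adjusted p = 0.9997). The flavoprotein subunits Etfa and Etfb differed by 0.24 ± 0.19 and -0.024 ± 0.18 on SD and by -0.25 ± 0.19 and -0.37 ± 0.18 on HFHS, and the other 2 probes of Etfb gave 0.15 and 0.08 on SD.

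Among the droplet genes, Plin5, the perilipin that ties lipid droplets to mitochondria in oxidative muscle, had the lowest interaction of the 37 and is shown for that reason. It stood at 4.18, 5.35, 4.94 and 4.24 in WT_SD, 5.70, 4.71, 5.50 and 5.85 in CB1KO_SD, 5.22, 5.72, 5.92 and 4.46 in WT_HFHS and 3.43, 5.13, 4.68 and 5.04 in CB1KO_HFHS. CB1KO exceeded WT by 0.76 ± 0.42 on SD and the difference on HFHS was -0.76 ± 0.42, with an interaction of -1.52 ± 0.60 (unadjusted p = 0.0238 in limma, adjusted p = 0.9997). The groups overlapped on both diets. Pnpla2, the adipose triglyceride lipase that starts droplet lipolysis, stood at 6.29, 6.93, 6.81 and 6.66 in WT_SD, 6.94, 6.33, 6.85 and 6.83 in CB1KO_SD, 6.401, 6.95, 7.03 and 6.17 in WT_HFHS and 6.13, 6.65, 6.77 and 6.53 in CB1KO_HFHS. It differed by 0.067 ± 0.22 and -0.12 ± 0.22, with 95% intervals of -0.41 to 0.55 and -0.60 to 0.36. Lipe, the hormone-sensitive lipase, lay lower in CB1KO on both diets, -0.41 ± 0.30 and -0.25 ± 0.30. Lipe is also abundant in fat cells, whose marker values stand beside Angptl4 above, and their part in its values was not tested.

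Pdk4, the kinase that shuts pyruvate dehydrogenase and so spares glucose, also kept its sign across diets. It stood at 8.48, 8.63, 8.63 and 8.28 in WT_SD, 8.26, 7.97, 8.49 and 8.20 in CB1KO_SD, 7.87, 8.49, 8.68 and 8.24 in WT_HFHS and 7.26, 8.09, 8.10 and 7.89 in CB1KO_HFHS. CB1KO minus WT was -0.27 ± 0.21 on SD, -0.49 ± 0.21 on HFHS and -0.38 ± 0.15 averaged over both (unadjusted p = 0.023, limma adjusted p = 0.268), with overlapping groups on each diet. Ucp3, the uncoupling protein of muscle mitochondria, stood at 2.32, 2.59, 2.67 and 2.97 in WT_SD, 2.72, 2.72, 2.84 and 2.70 in CB1KO_SD, 2.25, 2.60, 2.62 and 2.24 in WT_HFHS and 2.16, 2.42, 2.76 and 2.66 in CB1KO_HFHS. Its differences, 0.11 ± 0.17 and 0.073 ± 0.17, were within the spread of its arrays, and its second probe gave -0.29 on HFHS. Acot2, the mitochondrial acyl-CoA thioesterase, stood at 1.09, 2.12, 2.03 and 1.99 in WT_SD, 2.51, 2.16, 2.30 and 2.04 in CB1KO_SD, 1.70, 2.50, 2.59 and 1.19 in WT_HFHS and 0.26, 1.85, 1.503 and 1.64 in CB1KO_HFHS. Within CB1KO all HFHS arrays lay below all SD arrays, which 1.2% of all genes did, at -0.94 ± 0.37 (adjusted p = 0.43). Whether its probe separates Acot2 from its close relative Acot1 was not tested.

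Of the PPAR family, Ppara had the highest genotype difference of the 37 on SD. It stood at 0.20, 1.59, 1.21 and 0.56 in WT_SD, 2.23, 1.14, 2.16 and 2.28 in CB1KO_SD, 1.71, 2.02, 2.54 and 0.97 in WT_HFHS and 0.58, 2.19, 1.18 and 1.502 in CB1KO_HFHS. The difference was 1.06 ± 0.42 on SD (unadjusted p = 0.0236, limma adjusted p = 0.495), -0.45 ± 0.42 on HFHS and -1.51 ± 0.59 for the interaction. CB1KO_SD replicate 2, at 1.14, overlapped with WT_SD, and the probes of Ppara disagreed. A second probe gave 1.02 on SD and -1.44 for the interaction, while the third gave -0.089 and -0.049. Ppard, the other fatty acid-activated receptor of muscle, differed by -0.22 ± 0.17 and -0.068 ± 0.17.

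**Figure D2:**
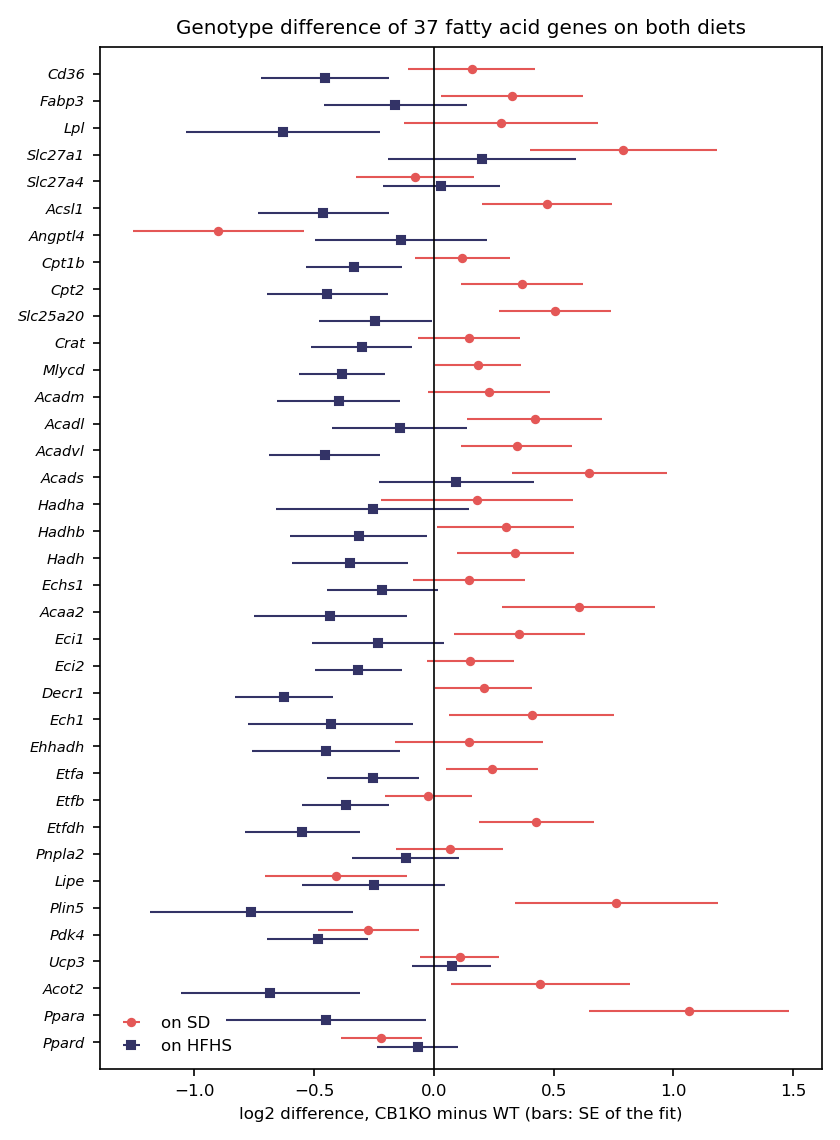
For each of the 37 genes the log2 difference of CB1KO minus WT is drawn on SD (circles) and on HFHS (squares), with the standard error of the fit. Circles lie right of 0 for 31 genes and squares left of 0 for 33, while Angptl4, Etfb, Lipe, Pdk4 and Ppard lie left of 0 on both diets.

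Averaged over both diets, the differences of opposite sign gave values near 0. None of the 37 passed (0, against 0.708% of all genes, limma), 1 had an unadjusted p under 0.05 (Pdk4, against 14.2% of all genes), and the median difference was -0.04. By sign 27 of 37 lay below 0, as 71.3% of all genes did, but 28 of 37 lay above the median gene, which stood at -0.12. The side of 0 varied with the scaling and with the arrays kept. Under quantile normalization, where the median gene stood at -0.05, 14 of 37 lay below 0. With the scaling unchanged but without CB1KO_SD replicate 2 and CB1KO_HFHS replicate 1, 12 of 37 did.

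The diet comparisons use the same arrays as the genotype comparisons and add no independent evidence to them. In WT, 30 of 37 genes lay higher on HFHS, with a median of 0.30, where 42.6% of all genes lay above 0 and the median gene stood at -0.05. None passed (0, against 0% of all genes, limma), and 6 had an unadjusted p under 0.05, against 6.02% of all genes, all 6 on the higher side, where 2.09% of all genes were. These were Cpt2, Acadvl (0.53 ± 0.23), Acaa2 (0.78 ± 0.32), Decr1, Etfdh and Ppara. Decr1 differed by 0.54 ± 0.20 (adjusted p = 0.728), and its HFHS arrays all lay above its SD arrays, as in 2.19% of all genes. That separation was nearly a tie, with the lowest WT_HFHS array at 6.3964 and the highest WT_SD array at 6.3959. In CB1KO the sign was the other way: 35 of 37 lay lower on HFHS, with a median of -0.24, where 57.5% of all genes lay below 0. None passed (0, against 0.0276% of all genes, limma), and 3 had an unadjusted p under 0.05, against 9.56%, namely Angptl4, Acot2 and Ehhadh.

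**Figure D3:**
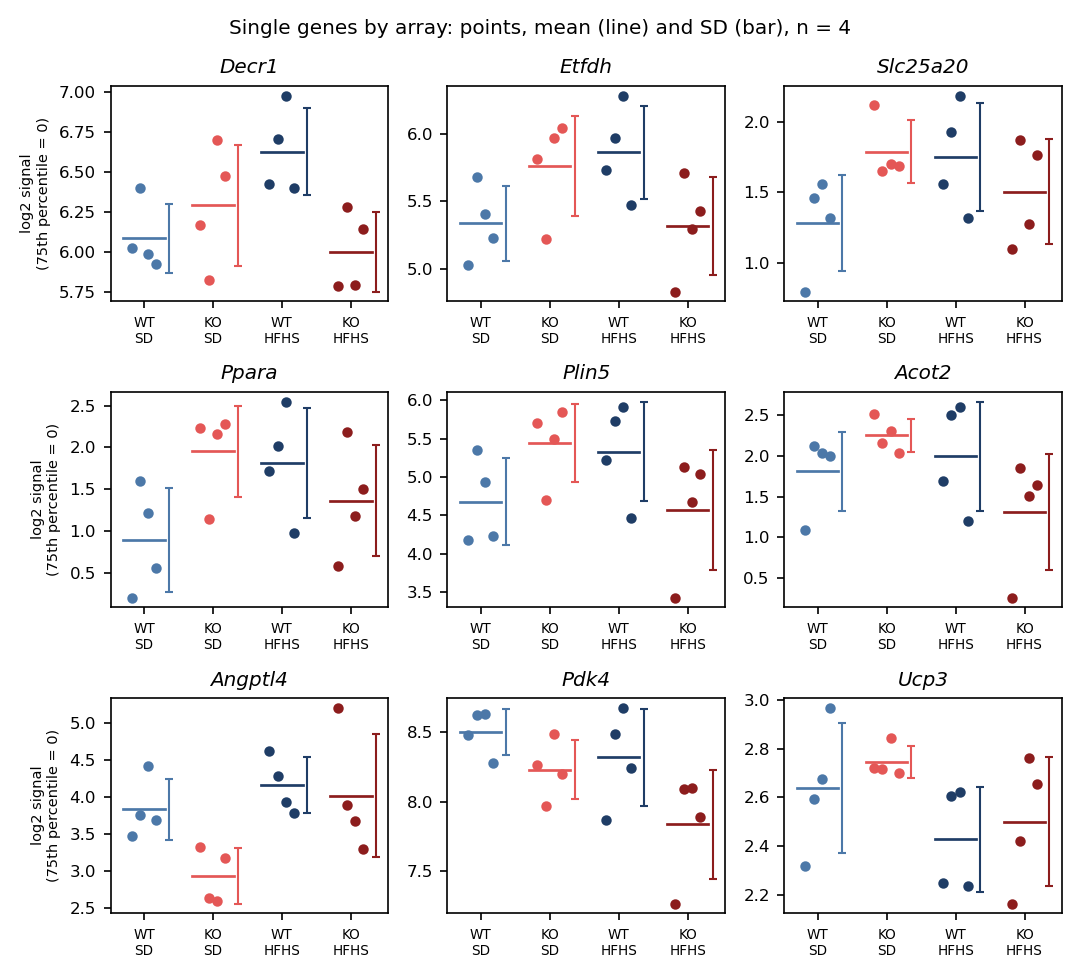
Log2 signal relative to the array's 75th percentile is drawn for 9 genes in the 4 groups, with a point per array, a line at the mean and a bar of 1 SD (n = 4). The means of Etfdh, Ppara and Plin5 are higher in CB1KO_SD and WT_HFHS than in the other groups, the mean of Angptl4 is lowest in CB1KO_SD, and that of Pdk4 is lowest in CB1KO_HFHS.

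Most of the 37 genes were lowest in the same array of a group. WT_SD replicate 1 was the lowest array of its group for 28 of 37 genes, CB1KO_SD replicate 2 for 29, WT_HFHS replicate 4 for 30 and CB1KO_HFHS replicate 1 for 32, and WT_HFHS replicate 3 was the highest of its group for 34. The mean over the 37 genes ran from 4.11 to 4.73 in WT_SD, 4.44 to 4.95 in CB1KO_SD, 4.39 to 5.26 in WT_HFHS and 4.06 to 4.85 in CB1KO_HFHS. The groups overlapped, and the range within a group was wider than the difference between any pair of group means.

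Slow-twitch fibre markers shared the low arrays of these genes. Their genotype difference had the same sign on SD, while on HFHS its sign depended on the summary used. The mean of 10 markers, which include the slow myosin Myh7 and the slow troponins Tnni1 and Tnnc1, was -0.51, 0.83, 3.28 and 2.92 in WT_SD, 4.83, 3.42, 5.02 and 3.57 in CB1KO_SD, 3.25, 3.08, 5.11 and 0.12 in WT_HFHS and -0.87, 4.91, 2.59 and 2.97 in CB1KO_HFHS. All 10 were well above background on every array. In each of the 4 groups the array lowest for the 37 genes was the array lowest for these markers. By the mean of each list, other genes of the pathway matched in all 4 groups as well, and endothelial markers in 3. The 12 fast-twitch markers and the muscle fibre markers matched in 2 groups, and adipocyte, macrophage and fibroblast markers in 1. For the highest array, slow-twitch markers matched in 2 of 4 groups, and fast-twitch and endothelial markers in 3. On SD all 10 slow-twitch markers lay higher in CB1KO, with a median log2 difference of 2.51, and all 10 interactions were below 0. None passed on SD (lowest limma adjusted p = 0.508) or in the interaction. On SD 4 had an unadjusted p under 0.05, against 8.72% of all genes. On HFHS, where 33 of the 37 genes lay lower in CB1KO, 6 of the 10 slow-twitch markers lay higher, with a median of 0.099. Their differences there ran from -2.32 to 1.02, and the mean of the 10 markers was lower in CB1KO_HFHS (2.40) than in WT_HFHS (2.89).

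Among markers of other cell types, the sign of the genotype difference on HFHS varied by type. Of 10 macrophage markers 9 lay higher in CB1KO, with a median of 0.83, and 4 had an unadjusted p under 0.05, against 8.97% of all genes. None of these 10 passed (lowest limma adjusted p = 0.438). Their mean ran from 1.62 to 2.66 in CB1KO_HFHS and from 0.88 to 1.82 in WT_HFHS. Of 8 fibroblast markers 7 lay higher, with a median of 0.22, and their mean ran from 4.28 to 5.49 and from 4.22 to 5.05. Of 8 endothelial markers 7 lay lower, with a median of -0.15, near the median gene at -0.13, and their mean ran from 1.52 to 1.94 and from 1.72 to 2.26. Every one of these markers was well above background on all HFHS arrays. Their part in the lower values of the 37 genes on HFHS was not tested.

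With the slow-twitch mean of each array as a covariate, the count above 0 on SD was 13 of the 37 instead of 31, with a median of -0.10. The median gene then stood at -0.17, and 23 of the 37 lay above it instead of 33. In the interaction 0 of the 37 had an unadjusted p under 0.05 instead of 10, with a median of -0.13 against 0.062 for the median gene. On HFHS 33 of 37 lay below 0, with a median of -0.29 against -0.12 for the median gene. Within CB1KO 23 of 37 lay lower on HFHS instead of 35. The covariate is itself measured on these arrays and differs between the groups, and which of the measures leads the other was not tested.

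**Figure D4:**
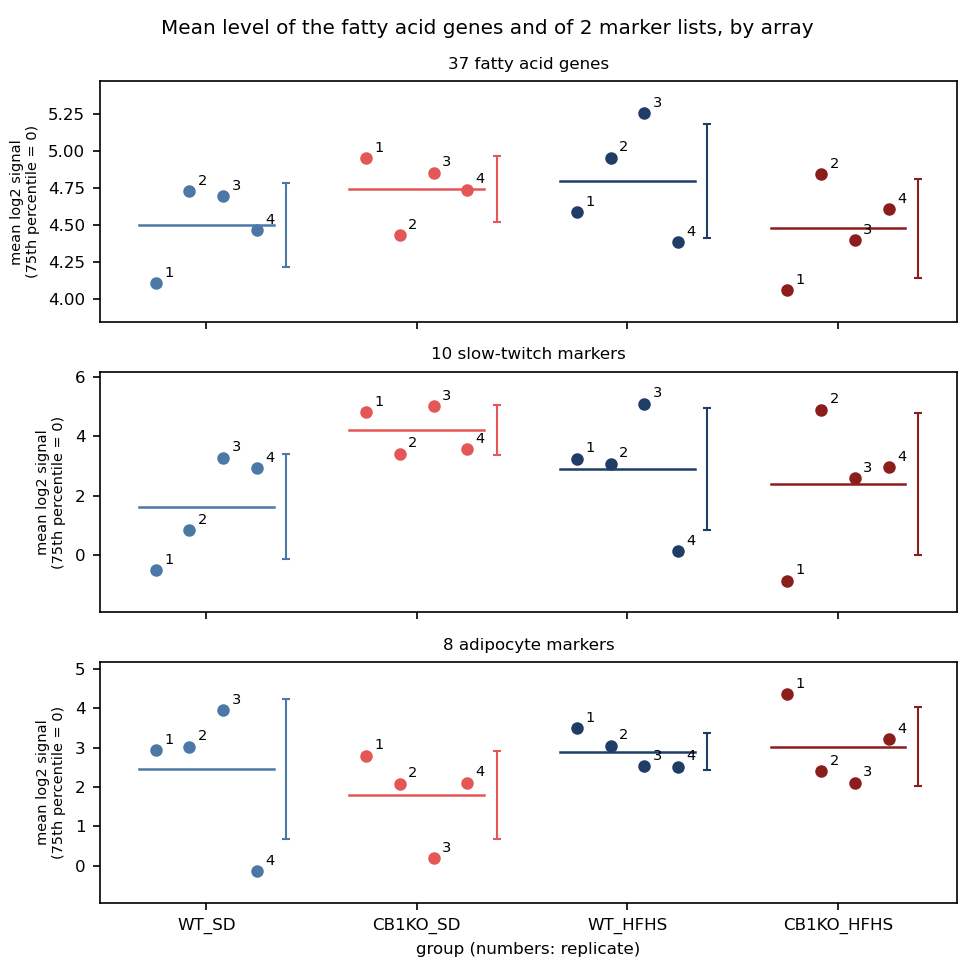
The mean log2 signal (75th percentile of the array at 0) of the 37 fatty acid genes, 10 slow-twitch markers and 8 adipocyte markers is drawn per array, with the replicate number, a line at the group mean and a bar of 1 SD (n = 4). In each group the lowest array of the upper panel is also the lowest of the middle panel, which for the adipocyte markers holds in 1 of 4 groups.

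Because many of the 37 genes shared their low and high arrays and PPAR receptors bind a direct repeat of AGGTCA with a 1-base spacer, promoters were searched for it. RefSeq promoter windows (GRCm38.p6, 250 bases before to 50 after the start) matched 31 of the 37 genes, in 36 windows. The repeat, 2 copies of AGGTCA with any 1 base between them, on either strand, occurred in 0 of the 36 windows exactly or with 1 mismatch (0.0396% and 0.554% of all 32851 windows) and in 5 with up to 2 mismatches, which is 13.9% against 3.86% of all windows. The 5 sites are shown with the repeat in capitals, each with 8 flanking bases, 5′ to 3′ on the strand of the gene. They are matches of letters and no measure of binding.
Cd36 (chr5:17835939-17835967, minus strand): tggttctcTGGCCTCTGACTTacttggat
Echs1 (chr7:140116484-140116512, minus strand): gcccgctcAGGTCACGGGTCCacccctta
Etfa (chr9:55512300-55512328, minus strand): gcacacccTTACCTTTGCCCTactcccaa
Slc25a20 (chr9:108662134-108662162, plus strand, after the start site): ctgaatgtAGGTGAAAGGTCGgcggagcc
Ucp3 (chr7:100472932-100472960, plus strand): tcagaattAGGTTTCAGGTCAgctggtgc
In Cd36 and Etfa the match reads on the opposite strand, so the capitals show its reverse complement. Of these 5 genes, Slc25a20, Cd36, Echs1 and Etfa lay above 0 on SD and below 0 on HFHS, and Ucp3 lay near 0 on both. Of all 37 genes, 28 had that pattern of signs, and its relation to the sites was not tested. The binding motif of the estrogen-related receptors, TCAAGGTCA, occurred exactly in 0 of the 36 windows (0.423% of all windows) and with up to 1 mismatch in 1 of them, that of Ech1, which is 2.78% against 7.46%. With up to 2 mismatches it occurred in 22 of the 36 windows, which is 61.1% against 53.4% of all windows. The site of Ech1 stands at chr7:28825268-28825292 as ggcttcggTGCCCTTGAccaacatg, with the match, on the opposite strand, in capitals.

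Beyond the 37, 70 other genes of the pathway were listed, of which 69 were tested and Slc27a6 was well above background on no array. Of these, 36 of 69 lay above 0 on SD, with a median of 0.018, where 32.6% of all genes lay above 0 and the median gene stood at -0.12. On HFHS 50 of 69 lay below 0, with a median of -0.16, which is near the background of 67.7% of all genes below 0 and a median gene at -0.13. Plin3, a perilipin found on many kinds of droplet, was the only 1 of the 69 to pass in any comparison. It stood at 3.28, 3.69, 3.25 and 3.58 in WT_SD, 4.51, 3.85, 4.58 and 4.55 in CB1KO_SD, 3.82, 3.76, 4.15 and 3.49 in WT_HFHS and 4.05, 4.04, 4.44 and 4.16 in CB1KO_HFHS. Averaged over both diets it rose in CB1KO by 0.64 ± 0.14 (limma adjusted p = 0.0468), with 0.92 ± 0.19 on SD, where the groups did not overlap, and 0.37 ± 0.19 on HFHS. The adjusted p stood close to the threshold: it passed in 4 and missed in 12 of the 16 fits without 1 array, with values from 0.0108 to 0.110, and the difference stayed between 0.59 and 0.73. It also missed with the replicate number as a block (0.103), with the slide as a block (0.0654) and without the filter on dim probes (0.0741). The slow-twitch covariate (0.0838) and leaving out both WT_SD replicate 1 and CB1KO_HFHS replicate 1 (0.107) gave a miss too. For the SD difference the adjusted p was 0.184. That difference passed with quantile normalization (0.0425), normexp with quantile normalization (0.0368), array weights (0.00628) and the SD of log2 signal as covariate (0.0402). It passed as well without CB1KO_SD replicate 2 (0.0400), and without that array and CB1KO_HFHS replicate 1 (0.0217), but in no other setting run.

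Other pathway genes with the smallest p values did not pass. On HFHS Pdk3, a relative of Pdk4, differed by 1.12 ± 0.33, Acsl4, which activates arachidonic acid, by -0.80 ± 0.25, Esrra, the estrogen-related receptor alpha, by -0.55 ± 0.17, and Abcd3, a peroxisomal fatty acyl-CoA transporter, by -0.47 ± 0.15 (limma adjusted p from 0.268 to 0.343). Esrra stood at 5.13, 5.52, 5.27 and 5.13 in WT_SD, 5.37, 4.88, 5.64 and 5.48 in CB1KO_SD, 5.40, 5.69, 5.83 and 5.40 in WT_HFHS and 4.81, 5.25, 5.11 and 4.95 in CB1KO_HFHS, with every CB1KO_HFHS array below every WT_HFHS array. Such a separation was found in 11 of the 69 and in 6.71% of all genes, and Esrra was chosen from these after its values were seen. On SD Ppargc1a, the coactivator of mitochondrial biogenesis, differed by 0.41 ± 0.18 (adjusted p = 0.536). Between diets Rxra, a partner of the PPARs, had HFHS minus SD values of -0.84 ± 0.18 in CB1KO (adjusted p = 0.126) and -0.46 ± 0.18 in WT. Peroxisomal Decr2 and Pex11a lay higher on HFHS in WT by 0.45 ± 0.12 and 0.55 ± 0.18, with interactions of -0.44 ± 0.17 and -0.73 ± 0.26 (adjusted p = 0.9997 in both).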

How the data were processed

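Total RNA of skeletal muscle was hybridised to 16 one-colour (Cy3) arrays, 1 per mouse and 4 per group. The authors deposited the scanner intensities, made with Feature Extraction 11.5.1.1 per the file headers. The authors normalized these signals to a z-score per array before they deposited the values table: each deposited score equals the log2 signal minus the array's mean, divided by its SD, within 0.005. Processed signal was taken as log2 minus the array's 75th percentile, spots called outliers were left out, and repeated spots averaged. A probe had to be called well above background on 4 or more arrays, and each gene was represented by its brightest probe. A linear model with a mean for each group was fitted to all 28964 genes with limma 3.58.1 in R 4.3.3 (lmFit, eBayes, two-sided). Benjamini-Hochberg adjustment was applied at 0.05. The fit was also run on simulated data with independent noise for each gene. That run does not cover deviations that many genes of an array share. The number of arrays limits the precision. The series design calls the arrays biological replicates.

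The 37 genes and all lists were chosen with earlier results of these data known. Values by array are given for the 3 genes with the smallest p in each comparison and for 11 genes taken by role. Plin5 and Esrra were added after their values were seen. From the other pathway genes, those that passed and some of those with the smallest p are named. The z-scores served as an alternative, beside other normalizations, filters, probe rules, covariates, blocks and fits without each array. The replicate numbers were not taken as pairs, since same-numbered arrays did not deviate together in every pair.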

Additional observations from a re-analysis of the deposited data

Results flagged for a closer look

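In 10 of the 148 sets of 4 arrays (37 genes in 4 groups), 1 array stood apart from the other 3 by Dixon's test at the 95% level. Chance alone flags about 1 in 20 such sets. In CB1KO_SD replicate 2 stood low for Cpt1b at 4.92 (others 5.48 to 5.58), Hadhb at 6.70 (7.36 to 7.48), Acaa2 at 6.52 (7.32 to 7.37) and Ppara at 1.14 (2.16 to 2.28). This array also had the lowest SD of log2 signal of the 16. In the same group Slc25a20 stood high in replicate 1 at 2.12 (1.65 to 1.70), and Ucp3 in replicate 3 at 2.84 (2.70 to 2.72). In WT_SD replicate 1 stood low for Acot2 at 1.09 (1.99 to 2.12) and Ppard at 2.41 (2.81 to 2.83), and replicate 4 high for Crat at 1.14 (0.58 to 0.66). In WT_HFHS replicate 3 stood high for Ehhadh at 1.70 (0.73 to 0.84). All values are log2 signal relative to the 75th percentile of the array.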

How the results depend on the processing

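The median difference of the 37 genes kept its sign in every setting run, apart from the average over diets and, with the slow-twitch mean as a covariate, SD (median -0.10, 13 above 0, with the median gene at -0.17). That covariate also gave an interaction median of -0.13, 0 of the 37 at an unadjusted p under 0.05, and 23 below 0 between diets in CB1KO. None of the 37 was called except with array weights: 1 on HFHS (Decr1), 2 averaged over diets (Angptl4 and Lipe) and 6 between diets in WT (Cpt2, Acadvl, Acaa2, Eci2, Decr1 and Etfdh). All genes called, in the order SD, HFHS, averaged, interaction, WT diet and CB1KO diet, were 628, 2334, 3066, 53, 1808 and 68 with array weights. Without both arrays of unusual spread they were 236, 193, 891, 11, 1 and 25. The other settings gave these counts of all genes. The SD of log2 signal as covariate gave 150 on SD, 355 on HFHS, 1752 averaged and 15 between diets in CB1KO. Z-scores gave 25 on SD and 3 between diets in CB1KO. Probes above background on all 16 arrays gave 7 and 20, the mean of probes 3 on SD, and no filter 135 averaged and 4 between diets in CB1KO. Normexp with quantile normalization gave 23 on SD, 121 on HFHS, 391 averaged, 1 in the interaction and 19 between diets in CB1KO. Quantile normalization alone gave 23 on SD, 369 averaged and 2 between diets in CB1KO. Fits of only the groups compared gave 0 on SD, 43 on HFHS and 0 between diets in CB1KO. The slow-twitch covariate gave 122 on HFHS, 107 averaged and 0 between diets in CB1KO, and a trended, robust prior 5 on SD, 106 on HFHS and 1 between diets in CB1KO. Without WT_SD replicate 1 and CB1KO_HFHS replicate 1, chosen after seeing the data, counts were 2, 116, 136 and 10 for the first 4 comparisons and 23 between diets in CB1KO, and 1 of the 37 had an unadjusted p under 0.05 in the interaction.

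Averaged over diets, 27 of 37 lay below 0, but 16 with z-scores, 11 with normexp, 14 with quantile normalization, 12 without both arrays of unusual spread and 13 to 31 without 1 array. Single genes changed sign as follows. With array weights Lpl was -0.018 on SD, with the mean of probes Ucp3 was -0.11 on HFHS, and Pnpla2 on HFHS was 0.029 with normexp and 0.016 with quantile normalization. With the slow-twitch covariate the SD values were -0.24 for Cd36, -0.13 for Fabp3, -0.25 for Lpl, -0.11 for Cpt1b, -0.56 for Hadha, -0.10 for Acadm, -0.10 for Ucp3 and -0.25 for Pnpla2. Without both arrays of unusual spread, as without WT_SD replicate 1 and CB1KO_HFHS replicate 1, HFHS values were 0.068 for Fabp3, 0.12 for Hadha and 0.012 for Pnpla2, and in the second case SD values were -0.064 for Cd36, -0.013 for Lpl, -0.038 for Hadha and -0.059 for Pnpla2. The cause of these moves was not tested.

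Without 1 array, all genes called ranged from 0 to 26 on SD, 20 to 133 on HFHS, 47 to 617 averaged, 0 to 11 in the interaction, 0 to 1 between diets in WT and 0 to 30 in CB1KO. Of the 37, 26 to 32 lay above 0 on SD, 28 to 36 below on HFHS and 32 to 35 below in the interaction, where 2 to 16 had an unadjusted p under 0.05. Single genes ranged on SD from -0.064 to 0.35 (Cd36), -0.038 to 0.29 (Hadha), -0.013 to 0.49 (Lpl) and -0.059 to 0.20 (Pnpla2), and on HFHS from -0.53 to 0.10 (Angptl4), -0.41 to 0.068 (Fabp3), -0.50 to 0.12 (Hadha), -0.28 to 0.014 (Pnpla2) and -0.014 to 0.19 (Ucp3).

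With the replicate number as a block, all genes called were 36 on HFHS, 59 averaged and 0 between diets in CB1KO, none of the 37 was called, and the adjusted p of Plin3 was 0.103. The pairing by number was not uniform. Same-numbered deviations correlated from -0.75 to 0.049 between genotypes on SD, but from 0.050 to 0.43 on HFHS, where 3 of 4 pairs exceeded 0.1. Between diets they ran from -0.15 to 0.021 in WT and from -0.14 to 0.61 in CB1KO.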
